A study of Homo sapiens with 18 samples.

Results

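The genes described here are those of the NRF2 antioxidant response, a set of 10 chosen by name: the transcription factor NRF2 (gene NFE2L2) and its inhibitor KEAP1, and the antioxidant genes HMOX1, NQO1, GCLC, GCLM, TXNRD1, SRXN1, AKR1C3 and FTH1. The rule that chose them uses no measured value, but earlier results of these data were known when it was written. Of the 10, 9 were found on the array by gene symbol, out of 20046 genes with a named probe, and all 9 passed the filter on dim genes that left 15288 genes for testing. FTH1 was not analysed here, because no probe carried that symbol. Each gene was read from its brightest probe over all 18 arrays.

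With a short hairpin RNA against BCAT1, some members of this set changed in each of 3 leukaemia lines, and most of the changes were rises of less than 2-fold. In MOLM13, 5 of 9 members rose (limma, Benjamini-Hochberg adjusted p under 0.05 over all genes tested), where 21.1% of all genes tested changed in either direction. These were AKR1C3, at 2.62-fold, HMOX1, at 1.91-fold, NFE2L2, GCLM and SRXN1. The count was 3, with GCLM and SRXN1 lost, without shBCAT1 array 1 or 2 or shNT array 2 or 3. In HL-60, 3 of 9 members changed against 18.9% of all genes: HMOX1 and GCLM rose and TXNRD1 fell. The GCLM call was lost without HL-60 shBCAT1 array 1 or 2 or shNT array 3. The fall of TXNRD1 was not called on a second probe of the gene (log2 fold change -0.06). In SKM1, 3 of 9 members changed against 11.2% of all genes, and NFE2L2, NQO1 and GCLC all rose. Whichever of the 6 SKM1 arrays was left out, the count was 1, and the member left was NQO1. KEAP1 passed the test in none of the 3 lines.

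RNA came from 3 established human acute myeloid leukaemia lines, MOLM13, SKM1 and HL-60, which the series uses to ask what the branched-chain amino acid transaminase BCAT1 does in this disease. Each line was given a lentivirus with the hairpin shBCAT1-3, called shBCAT1 here, or with the control hairpin shNT. Transduced cells were collected by FACS at 48 h, and each of the 6 groups has 3 arrays. MOLM13 and SKM1 were grown in 20% serum and HL-60 in 10% serum, so serum and line cannot be told apart between HL-60 and the others. A single hairpin against BCAT1 was used, and each comparison is of that hairpin with shNT. The labels number the arrays of a group 1 to 3 and leave unsaid whether these came from different cultures. The p-values therefore rest on the spread between arrays, which may be technical.

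The values are probe intensities on a linear scale, with a median of 92.1 over all probes and arrays, and the array medians lie between 91.0 and 93.1. Intensities near 92.1 are dim, and no detection call was used. BCAT1 itself fell 6.84-fold in MOLM13, 9.62-fold in SKM1 and 10.2-fold in HL-60, with means of 157, 127 and 145 with shBCAT1 against 1071, 1221 and 1468 with shNT. With background subtracted the log2 fold changes of BCAT1 were -3.41, -4.14 and -4.10, against -2.77, -3.27 and -3.34 without, so that its folds are understated if background remains. Between 7 and 10 of 11 myeloid markers on the array exceeded 2 times the table median in each group, and 0 of 6 erythroid and megakaryocytic markers did. The lymphoid list had NKG7 past that level in all groups and CD3D in MOLM13. The list for epithelial and packaging cells had VIM past it in all groups and EPCAM in SKM1. In SKM1 the summed myeloid markers were 20699 to 22177 in shBCAT1 arrays against 44197 to 44829 in shNT arrays. The same 9 of 11 exceeded 2 times the table median in both SKM1 groups, and a sum is weighted to its brightest probes. In MOLM13 the myeloid sums were 71101 to 72571 against 63355 to 68241, and in HL-60 26566 to 28346 against 26456 to 27231. The summed lymphoid markers were 4047 to 5066 in shBCAT1 arrays against 3688 to 4013 in shNT arrays in MOLM13, 1024 to 1046 against 974.96 to 1020 in SKM1 and 1773 to 2128 against 1395 to 1484 in HL-60. The sums of the list for epithelial and packaging cells were 5660 to 6828 against 5933 to 6344 in MOLM13, 3571 to 3720 against 4067 to 4481 in SKM1 and 3667 to 3932 against 2299 to 3067 in HL-60. In MOLM13 and HL-60 no gene of this list but VIM passed 2 times the table median, so these sums are not read as a sign of epithelial cells. The summed erythroid and megakaryocytic markers lay between 512 and 569 in all groups. The part of these markers in the changes of the antioxidant genes was not tested. In bulk RNA, fewer cells of a type and less RNA per cell cannot be told apart. The number of arrays limits the precision.

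NRF2 is a basic leucine zipper transcription factor that the adaptor protein KEAP1 holds for ubiquitination and degradation while cells are unstressed. When electrophiles or oxidants modify cysteines of KEAP1, NRF2 is no longer degraded, enters the nucleus with a small MAF protein and binds the antioxidant response element, whose core is contained in TGACNNNGCA. Its targets make glutathione, reduce thioredoxin and peroxiredoxins, break down haem, store iron and reduce quinones and carbonyls. NRF2 is regulated in large part through the stability of its protein, which an array does not measure. In myeloid leukaemia the pathway is known for its part in resistance to drugs and oxidants.

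The promoter windows of the members were read from RefSeq (GRCh38.p14), from 250 bases before to 50 after an annotated start, to show which carry the letters TGACNNNGCA on either strand. Of the 10 members, 8 had a window in the table, 12 windows in all. HMOX1 and FTH1 had no window and were not searched. The motif was found in 3 of the 12 windows, 1 each of GCLM, KEAP1 and TXNRD1, each time on the strand opposite to the gene. Over the whole promoter table it was found in 1118 of 35116 windows, or 3.18%. In the GCLM window the 10 letters begin at position -35 from the start, in the KEAP1 window at -32 and in the TXNRD1 window at -103. GCLM and KEAP1 share the letters TGCTTAGTCA, which are TGACTAAGCA on the other strand, and TXNRD1 has TGCTTTGTCA, which is TGACAAAGCA on the other strand. KEAP1 and TXNRD1 each have another window without the motif. These are matches of letters near a start, and no binding was measured. Bases further from a start were not searched, so a window without the motif does not show that a gene lacks it. The windows with the motif are printed first, then both windows of AKR1C3, the member with the largest change, in which the motif was not found; capitals mark the motif.
GCLM, minus strand, chr1:93909381-93909680: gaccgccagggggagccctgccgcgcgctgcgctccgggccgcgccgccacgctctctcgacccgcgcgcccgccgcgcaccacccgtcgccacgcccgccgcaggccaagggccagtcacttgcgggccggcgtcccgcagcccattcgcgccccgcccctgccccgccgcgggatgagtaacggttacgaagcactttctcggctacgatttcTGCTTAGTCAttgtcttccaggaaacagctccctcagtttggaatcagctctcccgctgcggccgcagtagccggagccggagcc
KEAP1, minus strand, chr19:10502722-10503021: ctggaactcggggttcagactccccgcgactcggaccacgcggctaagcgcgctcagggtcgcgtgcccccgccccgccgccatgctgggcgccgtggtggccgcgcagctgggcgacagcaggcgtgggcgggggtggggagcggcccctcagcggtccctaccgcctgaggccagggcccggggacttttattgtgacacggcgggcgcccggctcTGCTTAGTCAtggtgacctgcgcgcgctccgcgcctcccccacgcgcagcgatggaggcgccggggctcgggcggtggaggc
TXNRD1, plus strand, chr12:104286782-104287081: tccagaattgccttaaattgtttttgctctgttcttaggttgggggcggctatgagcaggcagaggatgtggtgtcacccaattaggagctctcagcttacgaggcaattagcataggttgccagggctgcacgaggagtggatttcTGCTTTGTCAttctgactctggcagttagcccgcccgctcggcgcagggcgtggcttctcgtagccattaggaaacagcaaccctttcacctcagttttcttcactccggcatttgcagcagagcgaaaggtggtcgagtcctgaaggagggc
AKR1C3, plus strand, chr10:5048531-5048830: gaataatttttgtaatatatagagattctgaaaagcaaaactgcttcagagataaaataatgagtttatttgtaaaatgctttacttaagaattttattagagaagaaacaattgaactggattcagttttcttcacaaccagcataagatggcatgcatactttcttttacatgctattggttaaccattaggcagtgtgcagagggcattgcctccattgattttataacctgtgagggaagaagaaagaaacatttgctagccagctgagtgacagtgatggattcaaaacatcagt
AKR1C3, plus strand, chr10:5094164-5094463: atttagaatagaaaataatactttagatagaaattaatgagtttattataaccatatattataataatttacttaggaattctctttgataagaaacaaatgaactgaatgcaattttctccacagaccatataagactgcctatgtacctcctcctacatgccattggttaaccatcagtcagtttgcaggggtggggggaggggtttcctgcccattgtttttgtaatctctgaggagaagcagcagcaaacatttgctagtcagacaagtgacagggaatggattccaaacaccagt

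Levels with the control hairpin were compared between the lines first. Of the 9 members, 6 differed in MOLM13 against SKM1, 5 in MOLM13 against HL-60 and 4 in SKM1 against HL-60, while 47.7%, 44.3% and 48.7% of all genes tested did. These are 66.7%, 55.6% and 44.4% of the members. For SKM1 against HL-60 the count was 2 without HL-60 shNT array 2. AKR1C3 showed the widest spread. It had intensities of 271, 235 and 289 in MOLM13 shNT arrays, against 79.3, 96.5 and 92.3 in SKM1 and 84.7, 79.9 and 80.2 in HL-60. MOLM13 lay above both other lines without overlap (log2 differences of 1.57 and 1.69, SE 0.11), and in SKM1 and HL-60 the probe was at the level of a dim probe. With background subtracted these differences were 2.89 and 3.37, so that their size is not settled. HMOX1 was also highest in MOLM13, at a lower range, with 177, 141 and 152 in MOLM13, 90.1, 84.5 and 96.8 in SKM1 and 101, 96.4 and 92.9 in HL-60. MOLM13 was again above the others (0.78 and 0.68, SE 0.10), and SKM1 and HL-60 overlapped near the table median. These differences were 1.69 and 1.43 with background subtracted.

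The glutathione genes had their highest control level in SKM1. GCLM averaged 252 ± 26.0 in MOLM13, 361 ± 16.6 in SKM1 and 243 ± 30.0 in HL-60 (SD, n = 3 each), and SKM1 exceeded both other lines while MOLM13 and HL-60 overlapped. GCLC averaged 131 ± 18.2, 175 ± 3.73 and 147 ± 5.89 in the same order, with SKM1 above both and no difference passing the test between MOLM13 and HL-60 (adjusted p = 0.102). MOLM13 against HL-60 passed without MOLM13 shNT array 1 or 3 (adjusted p = 0.0430 and 0.0407), and SKM1 against HL-60 (adjusted p = 0.0152) was lost without HL-60 shNT array 2 (adjusted p = 0.0588). TXNRD1 averaged 823 ± 67.2 in MOLM13, 706 ± 31.9 in SKM1 and 994 ± 51.5 in HL-60, and each pair of lines passed the test. The difference between MOLM13 and SKM1 (log2 difference 0.22, adjusted p = 0.0291) was lost without SKM1 shNT arrays 2 or 3 or MOLM13 shNT array 1 (adjusted p = 0.118, 0.0605 and 0.167). Averaged over both probes of the gene, TXNRD1 in MOLM13 against HL-60 had a log2 difference of -0.07 (adjusted p = 0.570), and GCLM in SKM1 against HL-60 one of 0.19 (adjusted p = 0.0514). This mean also lost the calls of TXNRD1 in MOLM13 against SKM1 and of GCLC in SKM1 against HL-60. Background subtraction lost that TXNRD1 call too, and quantile normalization that GCLC call.

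NFE2L2 averaged 441 ± 28.2 in MOLM13, 372 ± 13.7 in SKM1 and 325 ± 38.7 in HL-60. MOLM13 exceeded HL-60 past the threshold (log2 0.45, adjusted p = 0.00107), and the neighbours in this order did not differ beyond it (adjusted p = 0.0613 and 0.124). They did without MOLM13 shNT array 2 (adjusted p = 0.0494, MOLM13 against SKM1) and without HL-60 shNT array 1 (adjusted p = 0.0338, SKM1 against HL-60). KEAP1 averaged 915 ± 168, 685 ± 30.3 and 664 ± 28.5 in the same order, with MOLM13 above both (0.40 and 0.45, adjusted p = 0.00146 and 0.000586). NQO1 averaged 261 ± 8.31, 277 ± 14.7 and 233 ± 37.1, and passed the test only for SKM1 against HL-60 (0.26, adjusted p = 0.0264). That NQO1 call was lost in the mean of both probes. It was also lost without HL-60 shNT array 2 or 3 or SKM1 shNT array 1 or 2 (limma adjusted p = 0.114, 0.156, 0.093 and 0.0744). NQO1 in MOLM13 against HL-60 passed without HL-60 shNT array 1 (adjusted p = 0.0087). For SRXN1, at 377 ± 39.5, 393 ± 27.4 and 384 ± 59.6, no pair of lines differed past the threshold. Levels of different genes cannot be set against each other here, since each probe has its own brightness.

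**Figure D1:**
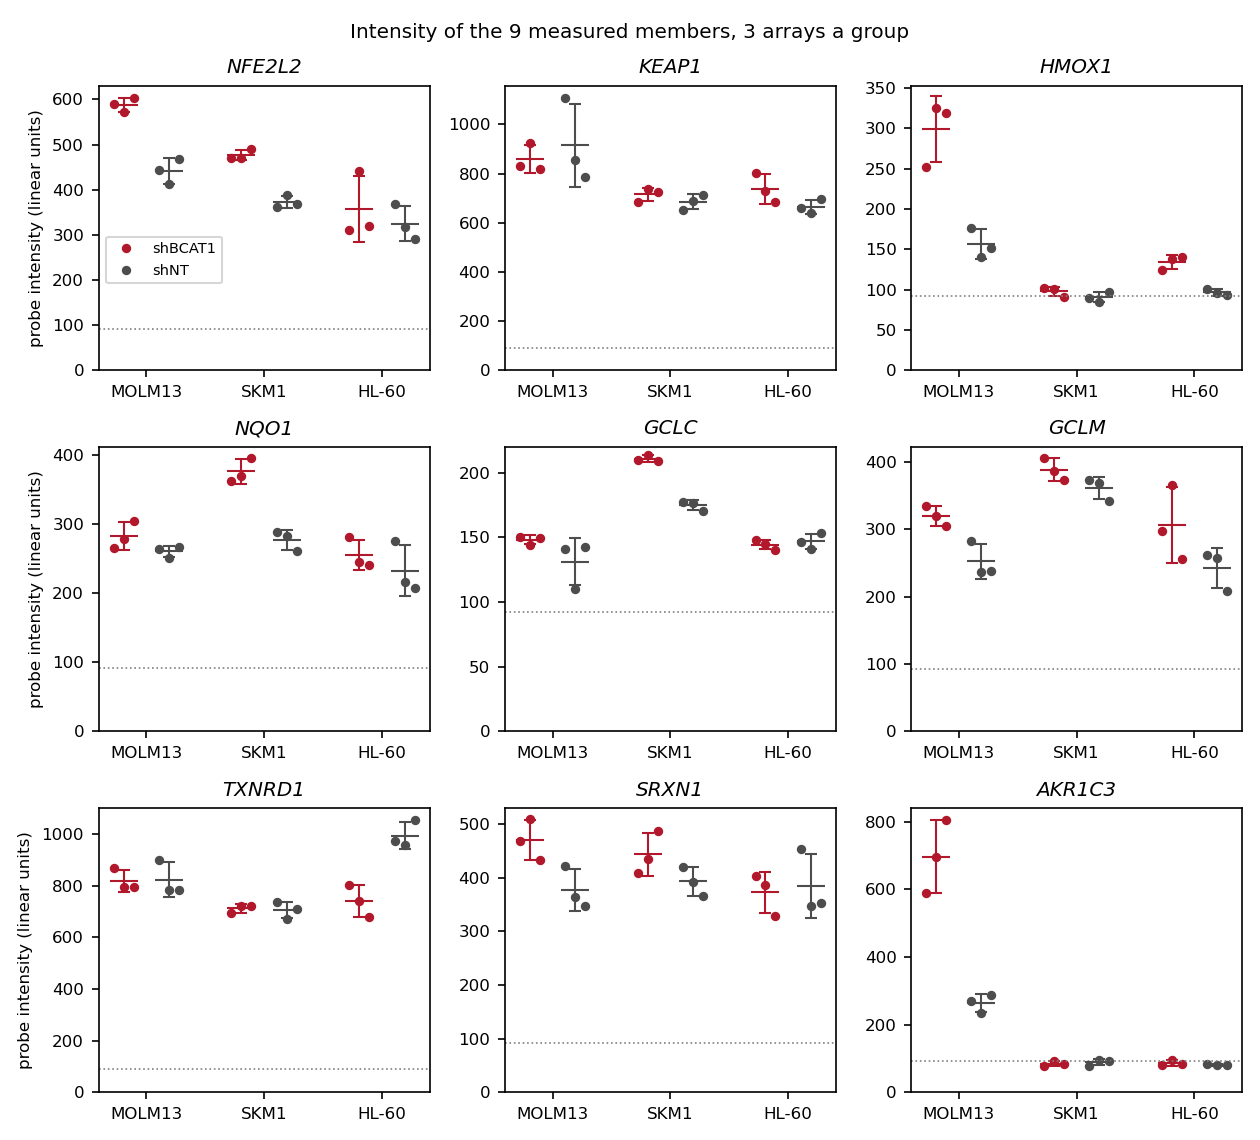
Probe intensity (linear units, axis starting at 0) of the 9 measured members on each of the 18 arrays, 1 panel a gene, with shBCAT1 left of shNT in each line; points are arrays, the bars the mean ± SD of 3 arrays, and the dotted line the table median of 92.1. AKR1C3 in MOLM13 lies at 589.6 to 804 with shBCAT1 against 235 to 289 with shNT, while AKR1C3 in SKM1 and HL-60 lies near the dotted line.

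With BCAT1 knocked down, the factor itself, NFE2L2, rose in MOLM13 and in SKM1. In MOLM13 its arrays read 591, 572 and 603 with shBCAT1 against 444, 412 and 468 with shNT. In SKM1 they read 470.3, 470.1 and 491 against 361, 388 and 368. All knockdown arrays of both lines lay above all control arrays of the same line, for log2 fold changes of 0.42 and 0.36 (SE 0.11, limma adjusted p = 0.00517 and 0.0272). In HL-60 the arrays read 311, 440.4 and 320.0 with shBCAT1 against 367, 316 and 291 with shNT and overlapped, with array 2 of shBCAT1 standing above the rest (log2 0.12, 95% interval -0.09 to 0.34). The SKM1 call was lost when any of the 6 SKM1 arrays was left out (adjusted p = 0.0502 to 0.0991), and the MOLM13 call was kept without each array in turn. The F test did not show that the change of NFE2L2 differed between lines (adjusted p = 0.330), though it did without HL-60 shBCAT1 array 2 (adjusted p = 0.0210).

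KEAP1, which targets NRF2 for degradation, did not pass the test. Its arrays read 832, 924 and 819 with shBCAT1 against 1105, 856 and 785 with shNT in MOLM13, where array 1 of shNT was the highest of all. They read 684, 736 and 727 against 653, 687 and 714 in SKM1, and 804, 730.4 and 683 against 661, 638 and 694 in HL-60. The groups overlapped in each line, and the log2 fold changes of -0.08, 0.06 and 0.15 had 95% intervals of -0.29 to 0.13, -0.14 to 0.27 and -0.05 to 0.36. A second KEAP1 probe of similar brightness gave 0.14, -0.039 and -0.072, and none of these passed the test.

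The enzyme that commits cysteine to glutathione, glutamate-cysteine ligase, has a catalytic subunit, GCLC, and a modifier subunit, GCLM, both of them targets of NRF2. GCLM rose in MOLM13 and in HL-60. Its arrays read 334, 319 and 304 with shBCAT1 against 282, 237 and 238 with shNT in MOLM13, without overlap, and 297, 366 and 256 against 262, 258 and 208 in HL-60, with overlap. The log2 fold changes were 0.34 and 0.33 (SE 0.11, adjusted p = 0.0266 and 0.0375). In SKM1 GCLM read 406, 387 and 373 against 373, 368 and 342 (0.11, 95% interval -0.12 to 0.33), so that the groups just failed to overlap without a call. The GCLM calls were lost when some of the arrays were left out in turn. In MOLM13 the limma adjusted p was 0.095, 0.0654, 0.115 and 0.102 without shBCAT1 array 1 or 2 or shNT array 2 or 3. In HL-60 it was 0.0671, 0.261 and 0.219 without shBCAT1 array 1 or 2 or shNT array 3. A second, dimmer GCLM probe, with a mean of 152 over all arrays, gave log2 fold changes of -0.041 in MOLM13, 0.04 in SKM1 and 0.14 in HL-60, none of them called.

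GCLC rose in SKM1, with arrays of 209.9, 214 and 209 with shBCAT1 against 177, 177 and 171 with shNT. The groups did not overlap, and the log2 fold change of 0.27 (SE 0.08, adjusted p = 0.0375) was called, but not when any of the 6 SKM1 arrays was left out (adjusted p = 0.0823 to 0.134). In MOLM13 GCLC read 150.3, 144 and 149.7 against 141, 110.1 and 142, with no overlap and no call (0.18, adjusted p = 0.137). In HL-60 it read 148, 145 and 141 against 147, 141 and 153, and the log2 fold change was -0.025 (95% interval -0.20 to 0.15).

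Thioredoxin reductase 1, TXNRD1, passes electrons of NADPH to thioredoxin, and it was the single member that fell in any line. In HL-60 its arrays read 803, 742 and 679 with shBCAT1 against 974, 955 and 1052 with shNT, all below all controls (log2 -0.43, SE 0.08, adjusted p = 0.000439). In MOLM13 it read 867, 794 and 794 against 901, 784 and 785 and in SKM1 693, 719 and 723 against 736, 673 and 709, both with overlap and with log2 fold changes of -0.0061 and 0.012. The change differed between the lines (F test, adjusted p = 0.0107), by 0.42 for MOLM13 minus HL-60 and 0.44 for SKM1 minus HL-60 (adjusted p = 0.0150 and 0.0208). The fall depended on the probe. A second TXNRD1 probe, with a mean of 363 over all arrays, gave 0.30 in MOLM13, 0.17 in SKM1 and -0.06 in HL-60 and no call, and the mean of both probes gave -0.24 in HL-60 (adjusted p = 0.0643). Which transcripts of the gene each probe reads was not analysed here.

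Sulfiredoxin, SRXN1, restores peroxiredoxins that peroxide has overoxidised. In MOLM13 it read 469, 509 and 433 with shBCAT1 against 422, 363 and 346 with shNT, with no overlap (log2 0.32, SE 0.11, adjusted p = 0.0372). This call was lost without shBCAT1 array 1 or 2 or shNT array 2 or 3 (adjusted p = 0.0815, 0.159, 0.121 and 0.157). SRXN1 read 408, 435 and 487 against 420.5, 392 and 366 in SKM1 and 402, 387 and 328 against 453, 347 and 352 in HL-60, overlapping in both, with log2 fold changes of 0.17 and -0.039.

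**Figure D2:**
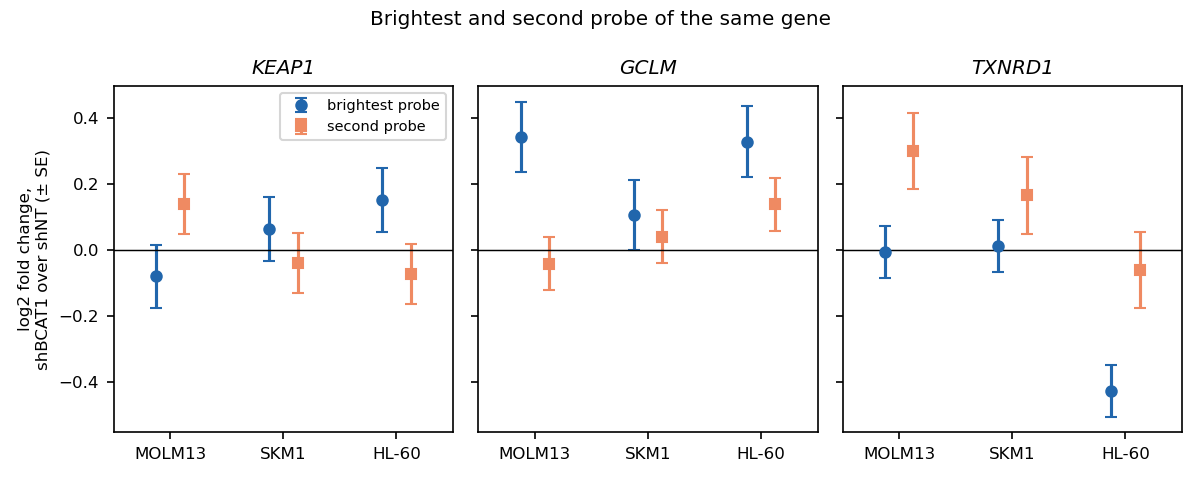
Log2 fold change (shBCAT1 minus shNT, ± SE) of the brightest and the second probe of KEAP1, GCLM and TXNRD1 in each line; the second probes of NQO1 and GCLC are dim and not drawn. TXNRD1 in HL-60 is at -0.43 on the brightest probe and -0.06 on the second.

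Haem oxygenase 1, HMOX1, which opens the haem ring and frees iron, carbon monoxide and biliverdin, rose in MOLM13 and in HL-60. In MOLM13 it read 252, 325 and 319.5 with shBCAT1 against 177, 141 and 152 with shNT. In HL-60 it read 124, 138 and 140.3 against 101, 96.4 and 92.9. Neither line had an overlap, and the log2 fold changes were 0.93 and 0.47 (SE 0.10, adjusted p = 2.62e-07 and 0.00128). In SKM1 the arrays read 102, 100.4 and 91.1 against 90.1, 84.5 and 96.8, near the table median in all 6, and overlapped (0.11, 95% interval -0.09 to 0.32). The F test across the lines passed (adjusted p = 0.000621, and 0.0495 with background subtracted), but with SKM1 and the HL-60 controls near the table median the size of the difference between lines is not given. The HMOX1 calls in MOLM13 and HL-60 held under all alternatives run, including without each array in turn. Background subtraction moved the dim HL-60 value to 1.05 and the MOLM13 value to 1.33 on the log2 scale.

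NQO1, a flavoprotein that reduces quinones to hydroquinones, rose in SKM1. It read 362, 370.0 and 397 with shBCAT1 against 289, 282 and 261 with shNT, with no overlap (log2 0.44, SE 0.10, adjusted p = 0.00246). In MOLM13 it read 266, 278 and 305 against 264, 251 and 267, and in HL-60 281, 245 and 241 against 275, 216 and 207. Both overlapped, with log2 fold changes of 0.12 and 0.14 that did not pass. The HL-60 value passed without shNT array 1, the highest control (0.27, adjusted p = 0.0391). The F test did not show that the change of NQO1 differed between the lines (adjusted p = 0.159).

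AKR1C3, an aldo-keto reductase that reduces steroids, prostaglandins and other carbonyls, had the largest change of the set. In MOLM13 its arrays read 589.6, 697 and 804 with shBCAT1 against 271, 235 and 289 with shNT, so that the lowest knockdown array was more than 2 times the highest control. The log2 fold change was 1.39 (95% interval 1.17 to 1.61, adjusted p = 1.89e-09), and it was called under all alternatives run. In SKM1 it read 78.3, 91.6 and 84.5 against 79.3, 96.5 and 92.3, and in HL-60 80.6, 96.3 and 84.8 against 84.7, 79.9 and 80.2. These values lie around the table median, so that a change in either line was not measurable with this probe. The F test across the lines passed (adjusted p = 4.71e-07) with those dim values in it, and is not read as a difference in response. AKR1C3 has paralogs of similar sequence, and signal between them may be shared. Of these, AKR1C4 rose in MOLM13 (227 against 139, log2 0.70, adjusted p = 3.92e-05). AKR1C2 was at 405 against 374 there (0.11, adjusted p = 0.530), and AKR1C1 was too dim to be tested.

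FTH1, the ferritin heavy chain, was not analysed here, and its partner the light chain FTL averaged 13923 with shBCAT1 against 14904 with shNT in MOLM13, and was not called in any line. Its log2 fold changes were -0.10 in MOLM13, -0.0014 in SKM1 and 0.08 in HL-60.

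**Figure D3:**
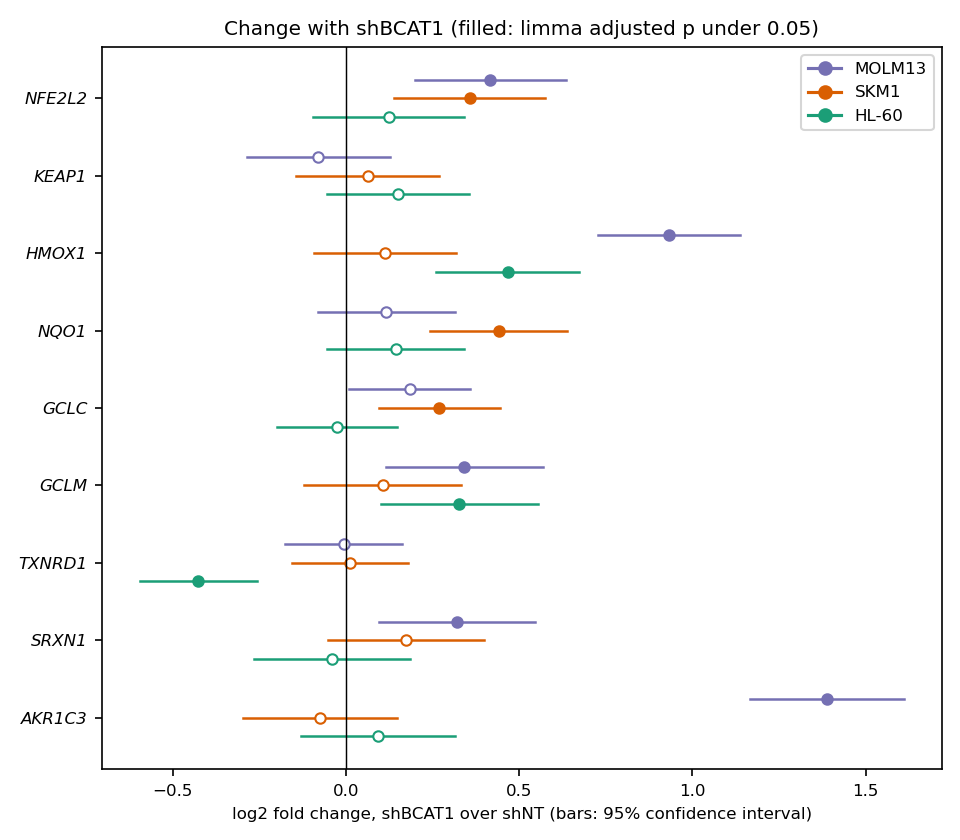
Log2 fold change (shBCAT1 minus shNT) of the 9 members in each line, with 95% intervals from the limma fit, filled where the adjusted p is under 0.05. AKR1C3 in MOLM13 at 1.39 and HMOX1 in MOLM13 at 0.93 stand to the right, and TXNRD1 in HL-60 at -0.43 to the left.

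The lines were then compared over the whole set. Between the hairpins, arrays were fully separated for 6 of 9 members in MOLM13, 4 in SKM1 and 2 in HL-60, against 31.0%, 33.3% and 28.4% of all genes tested. In MOLM13 and SKM1 all of these were higher with shBCAT1, and in HL-60 1 was higher and 1 lower. The sign of the change was the same in all 3 lines for 4 of 9 members, against 37.2% of all genes. These 4, NFE2L2, HMOX1, NQO1 and GCLM, were all higher with shBCAT1. The median log2 fold change of the 9 members was 0.32 in MOLM13, 0.11 in SKM1 and 0.12 in HL-60, with medians over all genes tested of 0.0015, -0.0033 and 0.0012. In the mean of the 3 lines, 7 of 9 members were called, where 27.9% of all genes were. Of the 7, 6 were higher and TXNRD1 lower, and among all genes 13.9% were called higher and 14.1% lower. The higher value of AKR1C3 (log2 0.47) rests on MOLM13 (1.39). Its probe was dim in SKM1 (-0.07) and HL-60 (0.09), so it is not read as a rise shared by the lines. The lower value of TXNRD1 (log2 -0.14, adjusted p = 0.0280) rests on HL-60 (-0.43), was -0.0025 in the mean of both probes (adjusted p = 0.983), and lost its call with background subtracted (adjusted p = 0.0759) and without MOLM13 shBCAT1 array 2 or 3 or shNT array 1, SKM1 array 1 of either hairpin, or HL-60 array 3 of either hairpin (adjusted p = 0.0510 to 0.0639). That of GCLC (0.14, adjusted p = 0.0291) was 0.053 in the mean of both probes (adjusted p = 0.269), and was lost with background subtracted (adjusted p = 0.0612) and without MOLM13 shNT array 2, SKM1 shBCAT1 array 2 or shNT array 3, or HL-60 shBCAT1 array 1 or shNT array 2 (adjusted p = 0.0515 to 0.0736). The F test passed HMOX1, TXNRD1 and AKR1C3, along with 2750 of all 15288 genes tested, with the limit that dim values set for HMOX1 and AKR1C3. For the other members, a call in 1 line and not in another is not shown to be a difference between lines.

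The wider pathway was described with 7 lists that hold 106 other genes, of which 90 were tested. In MOLM13, 24 rose and 9 fell, against 10.3% and 10.7% of all genes. In SKM1, 12 rose and 6 fell, against 4.67% and 6.50% of all genes. In HL-60, 18 rose and 8 fell, against 10.0% and 8.87% of all genes. The median log2 fold change of the 90 genes was 0.058, 0.023 and 0.014. The same shares of all genes are the ones to set beside the counts of each list below. Whether a list differs from them was not tested.

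Among 14 partners and regulators of NRF2, 3 rose and 3 fell in MOLM13, 1 rose and 1 fell in SKM1, and 3 rose and 0 fell in HL-60. The autophagy receptor SQSTM1 (p62), which binds KEAP1, rose in each line, with log2 fold changes of 0.37, 0.47 and 1.06 in MOLM13, SKM1 and HL-60 (adjusted p = 0.00461, 0.000983 and 1.23e-08). NFE2, a relative of NRF2 of blood cells, rose in HL-60 (0.65) and MOLM13 (0.30) and fell in SKM1 (-0.39). The NFE2 call in MOLM13 was lost without any one of the 6 MOLM13 arrays (adjusted p = 0.0506 to 0.0824), and that in SKM1 without shBCAT1 array 1 or 3 or shNT array 3 (adjusted p = 0.0728, 0.0659 and 0.0589). NFE2L1, another relative, fell in MOLM13 (-0.62), as did the small MAF protein MAFF (-0.38), whose call was lost in the mean of its probes. BACH1, a repressor of HMOX1, lay at 84.4 to 97.1 in the group means, near the table median, and was not called.

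Of 22 genes of glutathione synthesis and use, 7 rose and 2 fell in MOLM13, 5 rose and 3 fell in SKM1 and 2 rose and 3 fell in HL-60. Glutaredoxin, GLRX, which removes glutathione from protein thiols, rose in each line by 0.65, 0.51 and 0.74 on the log2 scale in MOLM13, SKM1 and HL-60 (adjusted p = 7.21e-06, 0.000284 and 1.32e-06). The microsomal glutathione transferase MGST1 rose in MOLM13 (2911 against 2292, log2 0.34) and fell in HL-60 (-0.66). The exporter ABCC4 fell in SKM1 (-0.41) and HL-60 (-0.64). SLC3A2, the heavy chain of the cystine carrier, fell in MOLM13 (-0.57) and in HL-60 (-0.28, adjusted p = 0.0473). The HL-60 call was lost without shNT array 3 (-0.18, adjusted p = 0.266) and without shNT array 2 or any of the shBCAT1 arrays (adjusted p = 0.0622 to 0.131). Quantile normalization, background subtraction, no filter on dim genes and HL-60 arrays alone each lost it too. In SKM1 SLC3A2 averaged 1931 with shBCAT1 against 1586 with shNT (log2 0.28, adjusted p = 0.0653). This SKM1 rise of SLC3A2 was not called, but was under 5 of 15 alternatives. Its light chain SLC7A11 lay at 91.4 to 106 in the group means and was not called.

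Of 14 thioredoxin and peroxiredoxin genes, 4 rose and 0 fell in MOLM13, 2 rose and 0 fell in SKM1 and 4 rose and 1 fell in HL-60. Sestrin 1, SESN1, a stress-induced gene, rose in each line, most in MOLM13 (log2 1.13, adjusted p = 3.86e-10), and by 0.27 in SKM1 and HL-60. The SESN1 call in SKM1 was lost without shBCAT1 array 3 or shNT array 1 or 2 (adjusted p = 0.158, 0.073 and 0.0956), and that in HL-60 without shNT array 2 (adjusted p = 0.0517). MSRB1, which repairs oxidised methionine, rose in MOLM13 (0.72) and HL-60 (0.93). Sestrin 2, SESN2, fell in HL-60 (-0.56).

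Of 9 genes that supply NADPH, 1 rose and 2 fell in MOLM13, 1 rose and 1 fell in SKM1 and 3 rose and 2 fell in HL-60. PGD, of the pentose phosphate pathway, rose by 0.27, 0.39 and 0.55 in MOLM13, SKM1 and HL-60. Its MOLM13 call (adjusted p = 0.0335) was lost without shBCAT1 array 1 or 2 or shNT array 2 or 3 (adjusted p = 0.162, 0.0752, 0.131 and 0.152). The mitochondrial transhydrogenase NNT fell in each line by 0.53, 0.77 and 0.55 on the log2 scale (adjusted p = 0.000813, 1.90e-05 and 0.000651). The isocitrate dehydrogenase IDH2 fell in MOLM13 (-0.65), and its cytosolic relative IDH1 rose in HL-60 (0.54). IDH1 in MOLM13, at 0.28, had an adjusted p of 0.0598, and of 0.0404 with the replicate number as a block and 0.0395 without shNT array 3.

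Of 12 genes of haem and iron, 1 rose and 2 fell in MOLM13, 0 rose and 1 fell in SKM1 and 1 rose and 2 fell in HL-60. The ferrireductase STEAP3 fell in each line (-0.40, -0.79 and -0.77 in MOLM13, SKM1 and HL-60). Its MOLM13 call (adjusted p = 0.00769) was lost without shNT array 1 (-0.28, adjusted p = 0.0585). The transferrin receptor TFRC fell in MOLM13 (-0.74), ferrochelatase, FECH, fell in HL-60 (-0.51), and the iron carrier SLC11A2 rose in HL-60 (0.78). Of 11 other genes of quinone, carbonyl and aldo-keto reduction, 3 rose in MOLM13 and none passed the test in SKM1 or HL-60. Besides AKR1C4 these were the epoxide hydrolase EPHX1 (284 against 211, log2 0.41) and the aldehyde reductase AKR7A2 (0.38). The F test across the lines passed for AKR1C4, EPHX1 and AKR7A2 (adjusted p = 0.00085, 0.00302 and 0.00225). The MOLM13 change of AKR1C4 ranged from 0.41 to 1.085 under the alternatives, and its signal may be shared with AKR1C3. The size of its difference between lines is therefore not settled.

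Of 8 genes listed for superoxide and peroxide, 5 rose in MOLM13, 3 in SKM1 and 5 in HL-60, and none fell past the threshold. Among all genes tested, 10.3%, 4.67% and 10.0% rose. The list's median log2 fold changes were 0.48, 0.17 and 0.33. Several of these genes make superoxide and do not remove it: NCF1, CYBB and CYBA are subunits of the phagocyte NADPH oxidase. NCF1 rose in each line, by 0.85, 0.91 and 1.24 on the log2 scale in MOLM13, SKM1 and HL-60, and has near-identical copies between which the probe may not tell. With background subtracted the HL-60 value was 2.20. CYBB rose by 0.70, 0.44 and 0.32, of which the HL-60 value (124 against 98.5) is of a dim probe and lost its call without shBCAT1 array 1 or 3 or shNT array 2 or 3 (adjusted p = 0.201, 0.0719, 0.0901 and 0.0669). The SKM1 call of CYBB was lost with background subtracted (adjusted p = 0.153). CYBA rose in HL-60 (0.77), and CCS, the copper chaperone of superoxide dismutase, rose in MOLM13 (440.5 against 244, log2 0.90). NCF4, a further oxidase subunit, and catalase, CAT, complete the calls of this list and were named after their values were seen. NCF4 rose by 0.42, 0.38 and 0.69, and CAT by 0.55 in MOLM13 and 0.33 in HL-60.

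**Figure D4:**
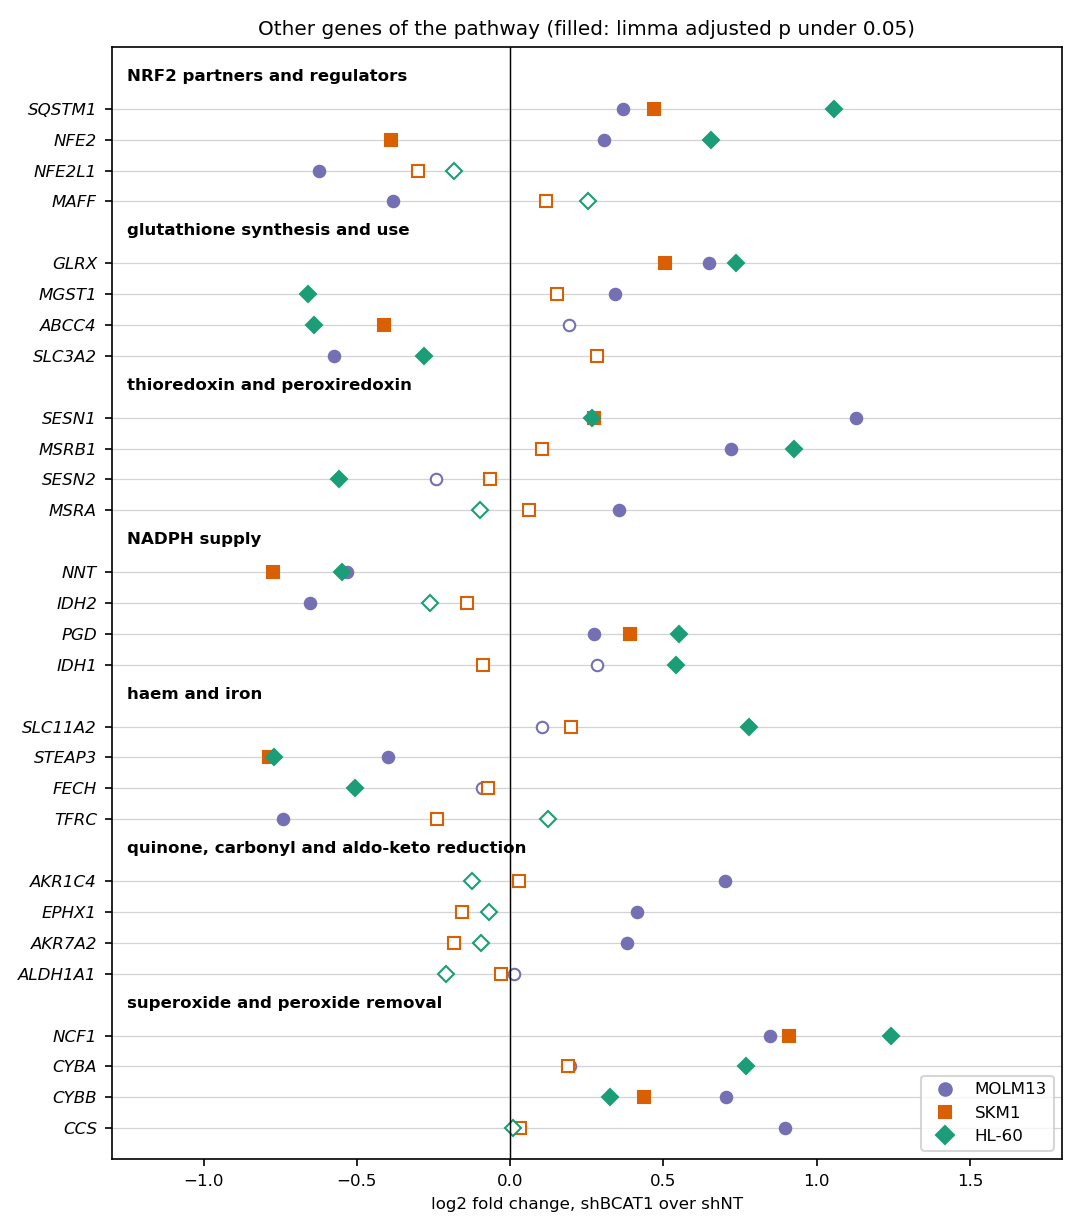
Log2 fold change (shBCAT1 minus shNT) of the 4 genes with the smallest p of each of the 7 pathway lists, by line, with filled points where the adjusted p is under 0.05. SQSTM1, GLRX, SESN1, PGD, NCF1 and CYBB are filled to the right of 0 in all 3 lines, and NNT and STEAP3 to the left.

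The genes most like some members over the 18 arrays are given as a description, by Pearson's r of log2 intensity. All 18 points come from 6 groups of 3 lines, so that a difference between lines alone gives a high r. For HMOX1 they were PTAFR (0.981), CCL2 (0.977) and SIGLEC14 (0.961). For AKR1C3 they were ORM2 (0.987), SIGLEC7 (0.984) and PPP1R14C (0.984). The values for NFE2L2 were lower, with RCBTB2 (0.928), PPP2R3C (0.923) and BBS2 (0.919), and so were those for NQO1, with FAM174A (0.927), JPT1 (0.900) and GNG2 (0.890).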

How the data were processed

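Gene expression was measured on 1-colour Illumina BeadChips from 200 ng of total RNA, in 18 samples. Each deposited value is a probe's linear intensity after the authors' own normalization. Its method, and whether background was subtracted, is not given in the sources used here. If background remains, fold changes of dim genes are understated. The smallest value was 60.4, and 15 values were missing. Arrays of a group correlated with r between 0.989 and 0.997. Probes were named through the platform annotation (of 48107, 30113 with 1 symbol, 8 with several and 17986 unlisted). The Entrez numbers of all 9 members matched RefSeq.

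The brightest probe of each gene was used, on the log2 scale. Genes entered the test if the mean of their brightest group was above the median of all probe values. A limma fit (version 3.58.1, R 4.3.3) gave each of 6 groups a mean, with moderated variances on 12 residual plus 10.8 prior degrees of freedom, and p-values were adjusted by Benjamini-Hochberg over 15288 genes. The procedure was tested on simulated data. The members and lists were chosen with earlier results of these data known. The text names BCAT1, the members, up to 4 genes a list with the smallest p in any line, and paralogs, partners and like genes of members. Alternatives were quantile normalization, background subtraction (the array's 5th percentile, offset 16), the filter, the probe, the spread estimate, the replicate block and leaving out each array. Plots used matplotlib 3.10.9 (Python 3.11.15).

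Whether replicate numbers pair the arrays was checked by the correlation of same-numbered arrays' deviations from their group means. It was 0.277, 0.131 and 0.382 in MOLM13, -0.0974, -0.141 and 0.0407 in SKM1, and 0.163, 0.013 and 0.0959 in HL-60. The labels do not say that the numbers pair arrays, and these correlations do not settle it. The fit that gave the calls had no block.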

Additional observations from a re-analysis of the deposited data

Results flagged for a closer look

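These genes are listed because the change with shBCAT1 differed between MOLM13, SKM1 and HL-60 by limma's F test over the pairwise differences of the line effects. BCAT1 itself was among them (adjusted p = 0.00221), with the smallest fall in MOLM13. Its means with shBCAT1, 157, 127 and 145 in MOLM13, SKM1 and HL-60, approach the table median of 92.1, so the size of this difference is not settled. Of the members, HMOX1 (adjusted p = 0.000621), TXNRD1 (0.0107) and AKR1C3 (4.71e-07) were listed. AKR1C3 in SKM1 and HL-60, HMOX1 in SKM1 and the HL-60 controls of HMOX1 lay near the table median. Of the named pathway genes, the F test gave adjusted p = 2.84e-05 for NFE2, 0.00318 for MAFF, 0.000784 for SQSTM1, 0.000271 for SLC3A2, 4.49e-06 for MGST1 and 1e-04 for ABCC4. It gave 0.00115 for MSRB1, 3.45e-06 for SESN1, 0.0118 for IDH1 and 0.0194 for IDH2. For genes of iron and of carbonyl reduction it gave 0.0197 for TFRC, 0.00215 for SLC11A2, 0.00085 for AKR1C4, 0.00225 for AKR7A2 and 0.00302 for EPHX1. The size of the AKR1C4 difference is not settled, since its signal may be shared with AKR1C3. For CCS the F test gave 0.00398 and for CYBA 0.00431. Of the 15288 genes tested, 2750 passed this test. Groups of 3 arrays were too small to look for an array far from the others of its group.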

How the results depend on the processing

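Of 1242 values for members under the alternatives, F tests included, 1152 kept their side of the threshold, 69 lost a call, 18 gained one and 3 called values changed sign. The 1152 include values without a call whose sign changed. The 3 called values that changed sign come from second probes: -0.044 for NQO1 and -0.0029 for GCLC in SKM1, both dim, and -0.041 for GCLM in MOLM13. The calls of AKR1C3, HMOX1 and NFE2L2 in MOLM13 and of HMOX1 in HL-60 held under every alternative run. With background subtracted, 3 members were called in MOLM13 and 1 in SKM1, where 1080 genes were called. This ended the calls of NFE2L2 and GCLC in SKM1 (adjusted p = 0.101 and 0.145), of GCLM and SRXN1 in MOLM13 (0.068 and 0.094) and of GCLM in HL-60 (0.0827). The mean of all probes called 1 member for SKM1 against HL-60 with shNT. In SKM1, array weights called 3099 genes and a fit of SKM1 arrays alone 3005, against 1707. The mean of both probes and background subtraction gave the F test of TXNRD1 an adjusted p of 0.0642 and 0.0573. Leaving out an array gave 3 to 5 members in MOLM13, 1 in SKM1, 2 to 4 in HL-60, 6 to 8 in the mean and 3 to 4 by the F test. It gave 5 to 7 for MOLM13 against SKM1, 5 to 6 for MOLM13 against HL-60 and 2 to 5 for SKM1 against HL-60. Genes called were 2432 to 3422 in MOLM13, 1188 to 1291 in SKM1, 2463 to 2674 in HL-60 and 3870 to 4416 in the mean. With the replicate block, 5, 3 and 3 members were called in MOLM13, SKM1 and HL-60 and 8 in the mean, with 3510, 1967, 3237 and 4615 genes. No call of a member changed in MOLM13, the line with the highest correlations of same-numbered arrays. The block was not run for the lines with shNT, where it was not estimable. Dim probes, near 92.1, limit what can be said of AKR1C3 and HMOX1 in SKM1, of AKR1C3 in HL-60 and of the size of the HMOX1 change in HL-60. The causes of lost calls were not tested.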
